A study of Mus musculus with 8 samples.

Results

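This report describes 10 basement membrane genes that mouse embryonic stem cells transcribe themselves: the laminin chain genes Lama1, Lama5, Lamb1 and Lamc1, the collagen IV chain genes Col4a1 and Col4a2, the nidogen gene Nid1, the perlecan gene Hspg2, and the genes of the matrix proteins Sparc and Tinagl1. They were chosen by name, from 22963 genes with RefSeq transcript values, and 8 of the 10 entered the test over 10278 genes. Col4a2 had no transcript row and Hspg2 was set aside because of zeros, and both are given mainly as values. The male C57BL/6J line Bruce 4 was kept for 2 weeks on laminin-511 (LN511) or on gelatin, in 2i medium or in a medium called Std, whose composition the labels do not give. The groups were LN511 2i, LN511 Std, gelatin 2i and gelatin Std, all of the same wild-type cells, with 2 libraries each that the design text calls biological replicates. All results come from 1 cell line.

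Basement membranes are sheets of secreted protein beneath epithelia, and in the early mouse embryo they underlie the primitive endoderm and the epiblast. Laminin is a trimer of 1 alpha, 1 beta and 1 gamma chain that polymerises at the cell surface and binds integrins and dystroglycan. Collagen IV forms a second network, and nidogen and perlecan link the networks. Laminin-511, the coating protein, is the trimer of the products of Lama5, Lamb1 and Lamc1, so the cells on that coating receive from outside a protein whose chain genes they may also transcribe. 2i medium takes its name from inhibitors of the kinases MEK and GSK3, which hold the cells in naive pluripotency.

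Levels are FPKM, fragments scaled by transcript length and library depth, so that levels of different genes can be set side by side. Each difference is one of log2(FPKM + 1), a scale that understates the change of low genes, and has a standard error (SE). A gene is said to have risen or fallen only where its adjusted p from limma, a linear model fitted across all 10278 genes, was under 0.05. The files give no read counts. If the commonest step between low values is 1 fragment, the depths of the 8 libraries came out within 1.19-fold of one another. The step was sought only within a narrow preset range. That range by itself keeps the depths close, so their closeness is not a result. Smaller steps also occurred, so fragment numbers from these steps are rough. On that basis 35 to 164 fragments lay behind the Lama1 values and 895 to 2554 behind those of Lamc1.

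The 6 embryonic stem cell markers looked up (Pou5f1, Sox2, Nanog, Zfp42, Esrrb and Klf4) were above 0 in all 8 libraries, and Pou5f1 was at 949 to 1245 FPKM. The 6 summed to 2098 and 2302 FPKM in LN511 2i, 1334 and 1387 in LN511 Std, 1878 and 1994 in gelatin 2i, with 1258 and 1191 in gelatin Std. This sum was higher in 2i than in Std on each coating. Primitive endoderm, a tissue rich in basement membrane transcripts, was looked for with 14 markers. Their summed level was 2.93 and 3.53 FPKM in LN511 2i, 5.37 and 7.24 in LN511 Std, 2.11 and 2.2 in gelatin 2i, with 3.27 and 4.57 in gelatin Std, with Afp and Ttr at 0 in all 8 libraries and no marker above 1.93 FPKM. The 10 fibroblast markers summed to 1.84 and 2.69 FPKM in LN511 2i, 9.78 and 12.7 in LN511 Std, 3.26 and 2.42 in gelatin 2i, with 6.15 and 6.13 in gelatin Std, with Postn and Lum at 0 throughout and Acta2 highest at 6.63. The 7 trophoblast markers summed to 6.21 and 8.27 FPKM in LN511 2i, 20.6 and 13 in LN511 Std, 9.61 and 7.36 in gelatin 2i, with 10 and 11.5 in gelatin Std, with Tpbpa at 0 throughout and Krt7 highest at 10.2. The sums of the primitive endoderm, fibroblast and trophoblast lists were lower in 2i than in Std on each coating, without overlap. These sums were higher in LN511 Std than in gelatin Std, without overlap. Of all genes tested, 59.6% did not overlap between media on LN511, 59.2% on gelatin, and 49.5% between coatings in Std. The lists did not move as a whole. Foxa2, Hnf4a, Pdgfrb and Cdx2 were among the markers with a higher mean in 2i on each coating. Thy1 and Ascl2 had a lower mean in LN511 Std than in gelatin Std. The part of primitive endoderm, fibroblast or trophoblast cells in the results below was not tested. In bulk RNA, fewer cells of a type and less RNA per cell cannot be told apart.

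The genomic sequence before an annotated start of 3 members is shown. These genes stand for 3 of the kinds of response described below. Nid1 rose in 2i medium, Lamb1 fell, and Lama5 did not pass the test in any comparison. No gene called between coatings is among them. The sequences are from RefSeq, build GRCm38.p6 (mm10), and run 5′ to 3′ on the strand of each gene. Each is the longest stretch of the 250 bases before a start annotated in RefSeq that overlaps no exon of the GENCODE annotation. For Lamb1 and Lama5 that start lies inside the gene coordinates given below, and so does part of the sequence shown. They lie at chr13:13437352-13437550 on the plus strand for Nid1, at chr12:31265043-31265233 on the plus strand for Lamb1 and at chr2:180225860-180226109 on the minus strand for Lama5. Capitals mark matches on either strand to the CCAAT box (CCAAT or ATTGG) and the GC box (GGGCGG or CCGCCC).
Nid1: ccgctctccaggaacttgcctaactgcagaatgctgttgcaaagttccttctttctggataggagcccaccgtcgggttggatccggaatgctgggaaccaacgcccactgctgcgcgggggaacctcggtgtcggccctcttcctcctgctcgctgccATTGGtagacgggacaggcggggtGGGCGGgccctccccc
Lamb1: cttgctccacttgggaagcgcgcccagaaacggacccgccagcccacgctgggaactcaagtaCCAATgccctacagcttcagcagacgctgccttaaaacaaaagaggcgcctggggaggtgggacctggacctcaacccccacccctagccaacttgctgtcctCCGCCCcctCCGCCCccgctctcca
Lama5: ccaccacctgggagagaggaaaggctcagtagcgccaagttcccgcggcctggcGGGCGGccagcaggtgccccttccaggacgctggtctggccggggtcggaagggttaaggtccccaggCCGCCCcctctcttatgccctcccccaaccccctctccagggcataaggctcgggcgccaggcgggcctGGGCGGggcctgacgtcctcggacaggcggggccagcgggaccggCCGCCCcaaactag
Nid1 held 1 CCAAT match and 1 GC box match, Lamb1 held 1 and 2, and Lama5 held 4 GC box matches and no CCAAT match. Of 32851 windows of 250 bases in the RefSeq table, 33.8% held CCAAT and 32.7% held GGGCGG. No match to TATAAA (12.4% of windows) or to CTTTGAT, a core sequence of TCF/LEF sites (3.2% of windows), was in the windows of the 8 members that had one. The 2 motifs shown do not overlap in these sequences. A match describes letters in a window and not a bound site.

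The first question was which laminin chains the cells make. Among the alpha chains, Lama5 (mm10 chromosome 2, 180176373 to 180225904) was the most abundant in every library. It was at 47.1 and 36.6 FPKM in LN511 2i, 38.5 and 33.3 in LN511 Std, 42.2 and 41.5 in gelatin 2i, with 40.0 and 27.8 in gelatin Std. These groups lay close together, and Lama5 did not pass the test in any of the 5 comparisons. The coating difference was 0.10 on the log2 scale in Std medium (SE 0.20, 95% interval -0.38 to 0.58) and -0.01 in 2i medium (SE 0.20, 95% interval -0.49 to 0.47). Lama5 encodes the alpha chain of the coating protein itself. Lama5 made up 83.8% to 93.8% of the summed alpha chain FPKM across the 8 libraries.

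Lama1 (mm10 chromosome 17, 67697127 to 67822645), the alpha chain of the first laminin of the mouse embryo, was the other alpha chain above 1 FPKM in all 8 libraries. It was at 6.94 and 7.08 FPKM in LN511 2i, 4.33 and 4.73 in LN511 Std, 4.40 and 2.20 in gelatin 2i, with 1.58 and 1.75 in gelatin Std. LN511 libraries lay above gelatin libraries in each medium with no overlap, and 2i libraries lay above Std libraries on each coating with no overlap. None of these differences passed the test. The difference of LN511 over gelatin was 1.05 in Std (SE 0.30, limma adjusted p = 0.159) and 0.95 in 2i (SE 0.30, limma adjusted p = 0.306), and that of 2i over Std was 0.54 on LN511 (SE 0.30, limma adjusted p = 0.277) and 0.64 on gelatin (SE 0.30, limma adjusted p = 0.213). As a share of the alpha chains, Lama1 was 12.8% and 16.2% in LN511 2i, 9.87% and 12.2% in LN511 Std, 9.35% and 4.97% in gelatin 2i, with 3.57% and 5.49% in gelatin Std.

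Of the other alpha chain genes, Lama3, an alpha chain of epithelial laminins, was listed at 0 in all 4 libraries of 2i medium. It was at 0.55 and 0.74 FPKM in LN511 Std and at 2.43 and 2.1 in gelatin Std. In gelatin Std it was thus above Lama1. Lama3 passed the test as lower in 2i on gelatin (limma adjusted p = 0.00609), but both gelatin 2i values are listed at 0, which may be failed estimates, so no fold is given. Its levels were under those at which such zeros were set aside. With no filter on low values Lama3 also passed as lower on LN511 in Std (limma adjusted p = 0.0381) and in 2i on LN511, again against listed zeros (0.0282). Lama2 and Lama4 were below the filter of 1 FPKM in 2 libraries.

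The beta chains changed with the medium, in opposite directions. Lamb1 (mm10 chromosome 12, 31265146 to 31329644), the beta chain of laminin-511, was at 3.83 and 5.15 FPKM in LN511 2i against 40.8 and 15.5 in LN511 Std, and at 6.72 and 9.49 in gelatin 2i against 28.3 and 34.6 in gelatin Std. Every 2i library lay below every Std library, and the LN511 Std libraries were far apart from each other. Lamb1 fell in 2i on LN511 (log2 difference -2.27, SE 0.43, limma adjusted p = 0.0147) and on gelatin (log2 difference -1.84, SE 0.43, limma adjusted p = 0.033). The call on LN511 was lost without LN511 2i replicate 1 (limma adjusted p = 0.0677) and with only the 4 LN511 libraries fitted (0.0741). That on gelatin was lost without gelatin 2i replicate 1 (0.148), gelatin 2i replicate 2 (0.0914), gelatin Std replicate 1 (0.105), gelatin Std replicate 2 (0.142) or either LN511 library of 2i medium (0.0518 and 0.052), and with no filter (0.0523). The deposited table of gene values lists Lamb1 above 0 in 3 libraries, LN511 2i replicate 2, LN511 Std replicate 1 and gelatin 2i replicate 2. All 3 values were within 0.1% of the sums used here. Both sets of values come from the same libraries, so this is not an independent check.

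Lamb2, the beta chain of neuromuscular and kidney laminins and no member of the 10, moved the other way. It was at 12.3 and 8.21 FPKM in LN511 2i against 3.48 and 2.72 in LN511 Std, and at 10.9 and 9.76 in gelatin 2i against 2.28 and 1.45 in gelatin Std. Every 2i library lay above every Std library. Lamb2 rose in 2i on LN511 (log2 difference 1.44, SE 0.28, limma adjusted p = 0.0171) and on gelatin (log2 difference 1.99, SE 0.28, limma adjusted p = 0.00632). The call on LN511 was lost without LN511 2i replicate 1 (limma adjusted p = 0.0703), LN511 Std replicate 1 (0.0586) or LN511 Std replicate 2 (0.0886), and with only the 4 LN511 libraries fitted (0.0614).

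With both genes counted, Lamb1 was the major beta chain in Std medium. In 2i medium Lamb1 was the minor one, though nearly level with Lamb2 in gelatin 2i replicate 2. Its share of the beta chain FPKM was 23.1% and 37.6% in LN511 2i against 90.5% and 83% in LN511 Std, and 37.7% and 48.8% in gelatin 2i against 91.6% and 95.2% in gelatin Std. The Lamb2 share was 74.2% and 60.1% in LN511 2i, 7.72% and 14.6% in LN511 Std, 61% and 50.2% in gelatin 2i, with 7.37% and 4% in gelatin Std. The beta chain sum was 16.6 and 13.7 FPKM in LN511 2i, 45.1 and 18.6 in LN511 Std, 17.8 and 19.4 in gelatin 2i, with 30.9 and 36.3 in gelatin Std. Lamb3 made up at most 2.74% of it.

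Lamc1 (mm10 chromosome 1, 153218922 to 153332786), the gamma chain shared by most laminins, was the most abundant laminin gene in all 8 libraries. It was at 87.7 and 108 FPKM in LN511 2i against 48.3 and 49.5 in LN511 Std, and at 130 and 75.2 in gelatin 2i against 51.0 and 47.3 in gelatin Std. The 2i libraries lay above the Std libraries without overlap, and those of gelatin 2i were far apart. Lamc1 rose in 2i on LN511 (log2 difference 0.98, SE 0.24, limma adjusted p = 0.035) and on gelatin (log2 difference 0.99, SE 0.24, limma adjusted p = 0.0371). Both calls were near the threshold. On LN511 the call was lost without either LN511 2i library (limma adjusted p = 0.0707 and 0.146), either LN511 Std library (0.136 and 0.125) or either gelatin Std library (0.0628 and 0.0627). On gelatin it was lost without either gelatin Std library (limma adjusted p = 0.122 and 0.148), either LN511 library of 2i medium (0.0534 and 0.0534) or of Std medium (0.0697 and 0.0698), or gelatin 2i replicate 1, without which the difference was 0.61 (limma adjusted p = 0.0826). With doubtful zeros kept or with no filter on low values both calls were lost (limma adjusted p = 0.0502 to 0.0583), and with only the 4 gelatin libraries fitted that on gelatin was lost (0.119).

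Between coatings Lamc1 differed by -0.01 in Std (95% interval -0.58 to 0.57) and by -0.02 in 2i (95% interval -0.60 to 0.55).

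Lamc1 FPKM exceeded the summed beta chain FPKM in all 8 libraries, and by more in 2i than in Std on each coating. The ratio of Lamc1 to that sum was 5.29 and 7.87 in LN511 2i against 1.07 and 2.65 in LN511 Std, and 7.27 and 3.87 in gelatin 2i against 1.65 and 1.3 in gelatin Std. The sum of the alpha chains varied less, at 54.2 and 43.7 FPKM in LN511 2i, 43.9 and 38.8 in LN511 Std, 47.1 and 44.2 in gelatin 2i, with 44.3 and 31.8 in gelatin Std. These are transcript levels, and the assembled trimers were not measured.

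**Figure D1:**
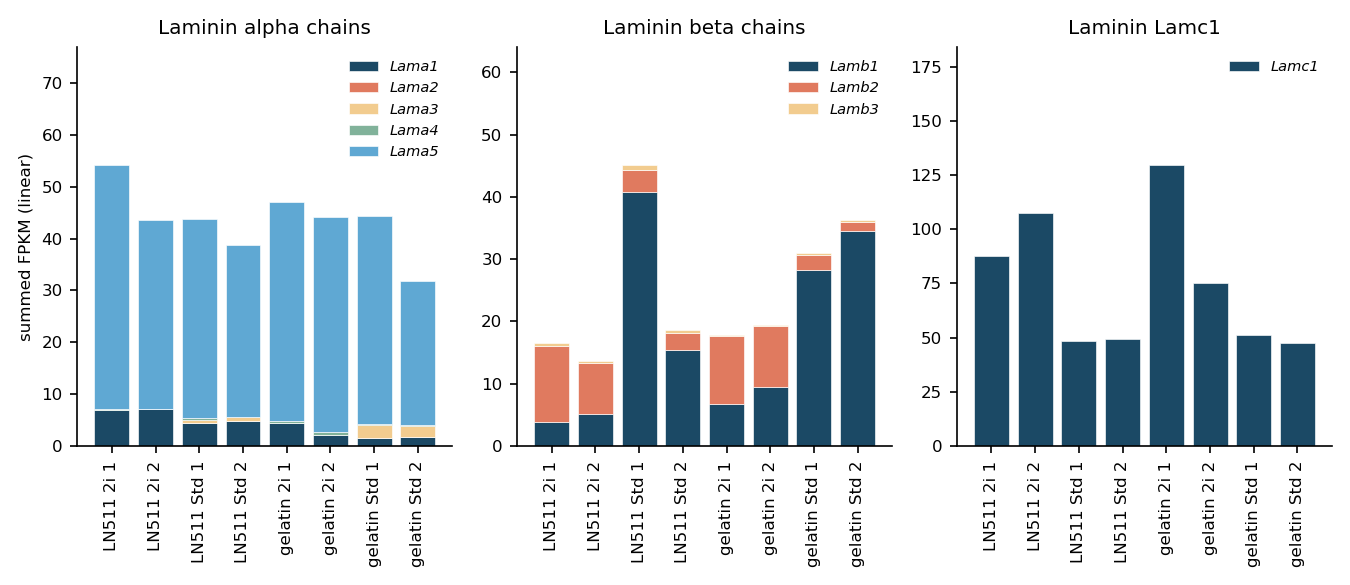
Summed FPKM (linear axis from 0) of the 5 alpha and 3 beta laminin chain genes, and FPKM of Lamc1, in each of the 8 libraries, with 1 colour per gene. Lama5 fills 83.8% to 93.8% of the alpha bars, Lamb2 takes 50.2% to 74.2% of the beta bars in 2i medium and 4% to 14.6% in Std medium, and Lamc1 is higher in 2i than in Std on each coating.

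Collagen IV is mainly a trimer of the products of Col4a1 and Col4a2. These genes lie head to head on chromosome 8, with Col4a1 (mm10, 11198423 to 11312889) on the minus strand, Col4a2 (11312805 to 11449287) on the plus strand and their first 85 annotated bases overlapping, so that fragments from the shared stretch cannot be told apart without strand. Col4a1 was at 11 and 10.5 FPKM in LN511 2i against 3.27 and 3.96 in gelatin 2i, and at 13.2 and 15.2 in LN511 Std against 6.52 and 5.98 in gelatin Std. Every LN511 library lay above every gelatin library. Col4a1 rose on LN511 in Std medium (log2 difference 1.07, SE 0.19, limma adjusted p = 0.0492). In 2i medium the difference was 1.35 (SE 0.19, limma adjusted p = 0.0747) and did not pass, and the interaction did not pass either (limma adjusted p = 0.719).

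The Std call sat at the threshold. It was lost without LN511 Std replicate 1 (limma adjusted p = 0.158) or 2 (0.211), gelatin Std replicate 1 (0.132) or 2 (0.168), LN511 2i replicate 1 (0.0761) or 2 (0.076), or gelatin 2i replicate 1 (0.0805) or 2 (0.0806), and with a pseudocount of 0.1 (0.0584), no filter (0.0566), doubtful zeros kept (0.0654), quantile normalization (0.054) or only the 4 Std libraries (0.122). The coating difference for Col4a1 in those fits ranged from 0.97 to 1.17. 2i libraries lay below Std libraries on each coating, and neither difference passed (limma adjusted p = 0.246 on LN511 and 0.0701 on gelatin).

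Col4a2 was only in the deposited table of gene values, whose zeros are unreliable. It was at 3.97 FPKM in LN511 2i replicate 2, 6.67 in LN511 Std replicate 2, 2.25 in gelatin 2i replicate 1 and 1.38 in gelatin Std replicate 1, and was listed at 0 in the other 4 libraries. In the libraries where it was above 0, LN511 values exceeded gelatin values, with 1 library for each group. Col4a3, Col4a4, Col4a5 and Col4a6, the chains of the collagen IV of kidney, lung and smooth muscle, were below the filter, none above 0.229 FPKM in any library.

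Nid1 (mm10 chromosome 13, 13437602 to 13512275) encodes nidogen, which binds the laminin gamma chain and collagen IV. It was at 65.8 and 53.9 FPKM in LN511 2i against 10.1 and 11.3 in LN511 Std, and at 83.7 and 84.0 in gelatin 2i against 9.75 and 8.93 in gelatin Std. All 2i libraries lay far above all Std libraries. Nid1 rose in 2i on LN511 (log2 difference 2.37, SE 0.14, limma adjusted p = 0.000206) and on gelatin (log2 difference 3.04, SE 0.14, limma adjusted p = 9.26e-05). Both calls held under every alternative in which Nid1 could be fitted, with adjusted p of at most 0.0137. Between coatings Nid1 did not pass in Std (log2 difference 0.18, limma adjusted p = 0.587) or in 2i (log2 difference -0.49, limma adjusted p = 0.266).

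Set against its laminin partner, the ratio of Nid1 to Lamc1 FPKM was 0.75 and 0.50 in LN511 2i against 0.21 and 0.23 in LN511 Std, and 0.65 and 1.116 in gelatin 2i against 0.19 and 0.19 in gelatin Std. Nid2, the other nidogen gene and no member, was more even, at 71.7 and 70.1 FPKM in LN511 2i, 48.6 and 48.1 in LN511 Std, 67.2 and 65.6 in gelatin 2i, with 37.8 and 37.2 in gelatin Std. Nid2 rose in 2i on LN511 (log2 difference 0.54, SE 0.08, limma adjusted p = 0.00736) and on gelatin (log2 difference 0.81, SE 0.08, limma adjusted p = 0.00204).

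Hspg2 (mm10 chromosome 4, 137468751 to 137570630) encodes perlecan, the heparan sulphate proteoglycan of basement membranes. It was listed at 0 in both LN511 2i libraries, and was at 11.2 and 23.7 FPKM in LN511 Std, 3.69 and 9.22 in gelatin 2i, with 7.89 and 3.93 in gelatin Std. The LN511 Std libraries were the highest and lay apart from each other. By the step estimate 136 to 940 fragments lay behind the values above 0. Whether the 2 zeros are low levels or failed estimates cannot be told from the files, so Hspg2 was set aside. With doubtful zeros kept it passed as lower in 2i on LN511 (limma adjusted p = 0.00646), a call that rests on those zeros, and did not pass in the other 4 comparisons (limma adjusted p = 0.124 to 0.963).

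Sparc (mm10 chromosome 11, 55394159 to 55420080) encodes a collagen-binding glycoprotein that is abundant in parietal endoderm. It was at 165 and 185 FPKM in LN511 2i against 93.5 and 95.2 in LN511 Std, and at 115 and 105 in gelatin 2i against 45.4 and 48.1 in gelatin Std. The 4 groups did not overlap. Sparc rose in 2i on LN511 (log2 difference 0.88, SE 0.09, limma adjusted p = 0.0017) and on gelatin (log2 difference 1.22, SE 0.09, limma adjusted p = 0.000616), and these calls held under every alternative in which Sparc could be fitted. Sparc also rose on LN511 in Std medium (log2 difference 1.00, SE 0.09, limma adjusted p = 0.00726), and in 2i medium the difference was 0.66 (SE 0.09, limma adjusted p = 0.0715) and did not pass. The Std call was lost without LN511 Std replicate 1 (limma adjusted p = 0.0717), LN511 Std replicate 2 (0.0658) or gelatin Std replicate 1 (0.0533), and with only the 4 Std libraries fitted (0.0749).

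Sparc was the sum of 2 RefSeq transcripts. The main one alone was at 143 and 150 FPKM in LN511 2i, 71.5 and 73.0 in LN511 Std, 115 and 105 in gelatin 2i, with 45.4 and 37.5 in gelatin Std, again with every LN511 library above the gelatin libraries of the same medium. The other transcript was listed at 0 in 3 of the 4 gelatin libraries and was at 21.6 and 34.6 FPKM in LN511 2i and 22.0 and 22.2 in LN511 Std. In gelatin Std replicate 2 it was at 10.5. The zeros may be failed estimates and enter the sums, so the sizes of the Sparc differences that involve gelatin are uncertain.

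Tinagl1 (mm10 chromosome 4, 130165600 to 130175122) encodes a secreted basement membrane protein related to the tubulointerstitial nephritis antigen. It was at 4.47 and 1.82 FPKM in LN511 2i, 5.93 and 8.30 in LN511 Std, 3.6 and 3.08 in gelatin 2i, with 0 and 0.44 in gelatin Std. Gelatin Std stood below the other 3 groups. Its listed 0 may be a failed estimate, so the sizes of the differences from that group are uncertain. Of the 2 RefSeq transcripts of Tinagl1, 1 was listed at 0 in all 8 libraries. Tinagl1 rose on LN511 in Std medium (log2 difference 2.74, SE 0.40, limma adjusted p = 0.0272) and in 2i on gelatin (log2 difference 1.85, SE 0.40, limma adjusted p = 0.0256). In 2i on LN511 the difference was -1.03 (SE 0.40, limma adjusted p = 0.126), and on LN511 in 2i medium it was -0.14 (SE 0.40, limma adjusted p = 0.928). The interaction of -2.88 (SE 0.56, limma adjusted p = 0.137) did not pass, so the medium effects on the 2 coatings were not shown to differ.

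By the step estimate at most 42 fragments lay behind any Tinagl1 value. The coating call was lost without LN511 Std replicate 1 (limma adjusted p = 0.106) or 2 (0.14), gelatin Std replicate 1 (0.112) or 2 (0.0874), or gelatin 2i replicate 1 (0.07) or 2 (0.0696). With a pseudocount of 0.1 the difference was 4.93 and the call was also lost (limma adjusted p = 0.0544), as it was with only the 4 Std libraries fitted (0.0827). The medium call on gelatin was lost without gelatin 2i replicate 1 (limma adjusted p = 0.114) or 2 (0.0927) or gelatin Std replicate 1 (0.118) or 2 (0.0634).

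**Figure D2:**
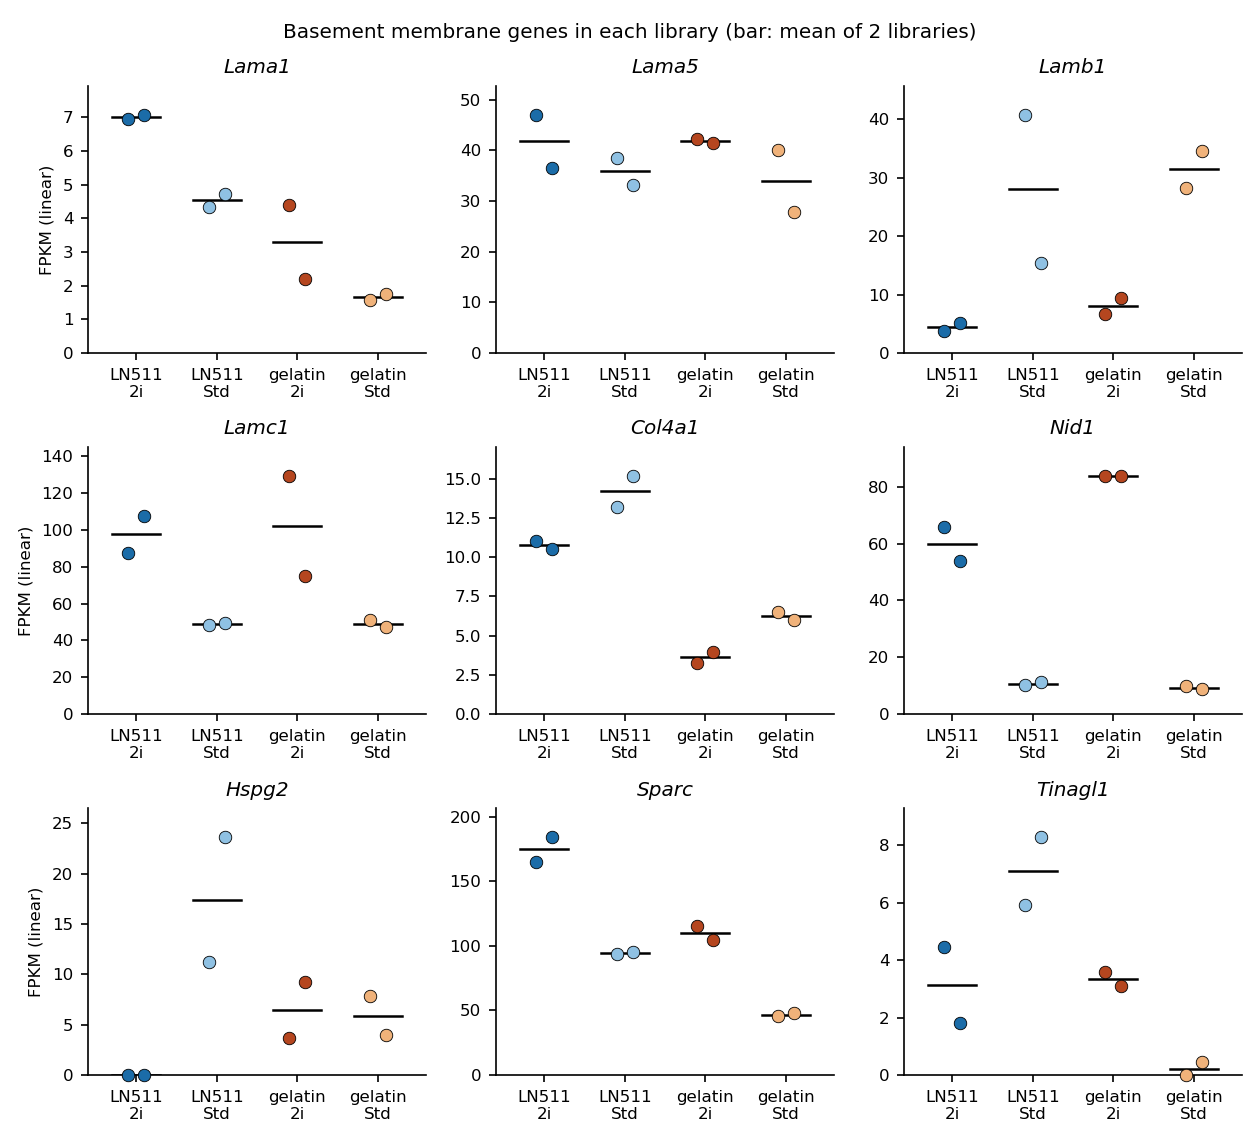
FPKM (linear axis from 0, a separate scale for each gene) of the 9 genes with transcript rows in the 8 libraries. Points are libraries and bars are means of 2. Nid1, Lamc1 and Sparc are higher in 2i on each coating, Lamb1 is lower, and Col4a1 and Sparc are higher on LN511 in each medium. Hspg2 is listed at 0 in LN511 2i.

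Across the comparisons, 3 of the 8 tested members rose and 1 fell in 2i on LN511, where 18.5% of all genes tested were called (8.58% higher and 9.95% lower). On gelatin 4 rose and 1 fell, where 15.4% of all genes were called (8.2% higher and 7.2% lower). Lamb1, Lamc1, Nid1 and Sparc were called on both coatings and in the same directions. The medium comparisons share no libraries, but 1 estimate of each gene's spread. The median log2 difference of the 8 members was 0.37 on LN511, against -0.04 over all genes, and 0.82 on gelatin, against 0.00 over all genes. The replicates did not overlap for 7 of 8 members on LN511, against 59.6% of all genes, and for 8 of 8 on gelatin, against 59.2%.

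With 1 library left out of the fit, fewer of all genes were called on each coating, and no more members than in the full fit. The fewest members were called on LN511 without LN511 2i replicate 1. On gelatin the fewest were called without gelatin 2i replicate 1 or either gelatin Std library.

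For the coating, 3 of 8 members (Col4a1, Sparc and Tinagl1) rose on LN511 in Std medium and none fell, where 2.1% of all genes were called (1.54% higher and 0.564% lower). The median of the 8 was 0.59, against 0.05 over all genes. The replicates did not overlap for 5 of 8 members in Std, against 49.5% of all genes, and for 5 of 8 in 2i, against 42.9%. The calls were lost without LN511 Std replicate 1, LN511 Std replicate 2 or gelatin Std replicate 1. Some of them were lost without gelatin Std replicate 2, either gelatin 2i library or either LN511 2i library. Fewer of all genes were also called in each of these fits, which leave 1 library in a group.

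In 2i medium limma called 0 of 8 members between coatings, where 0.0195% of all genes were called, all of them higher. At an unadjusted p under 0.05, 4 of 8 (Col4a1, Lama1, Nid1 and Sparc) passed, where 11.9% of all genes did, and no other test was run. For the interaction limma called 0 of 8 members, where 0.185% of all genes were called (0.0486% higher and 0.136% lower), and at an unadjusted p under 0.05 Nid1, Sparc and Tinagl1 passed, where 12.2% of all genes did. No member was shown to respond differently to 1 factor depending on the other. Comparisons of coating and of medium share libraries, so their values are given side by side and their overlap is not counted.

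**Figure D3:**
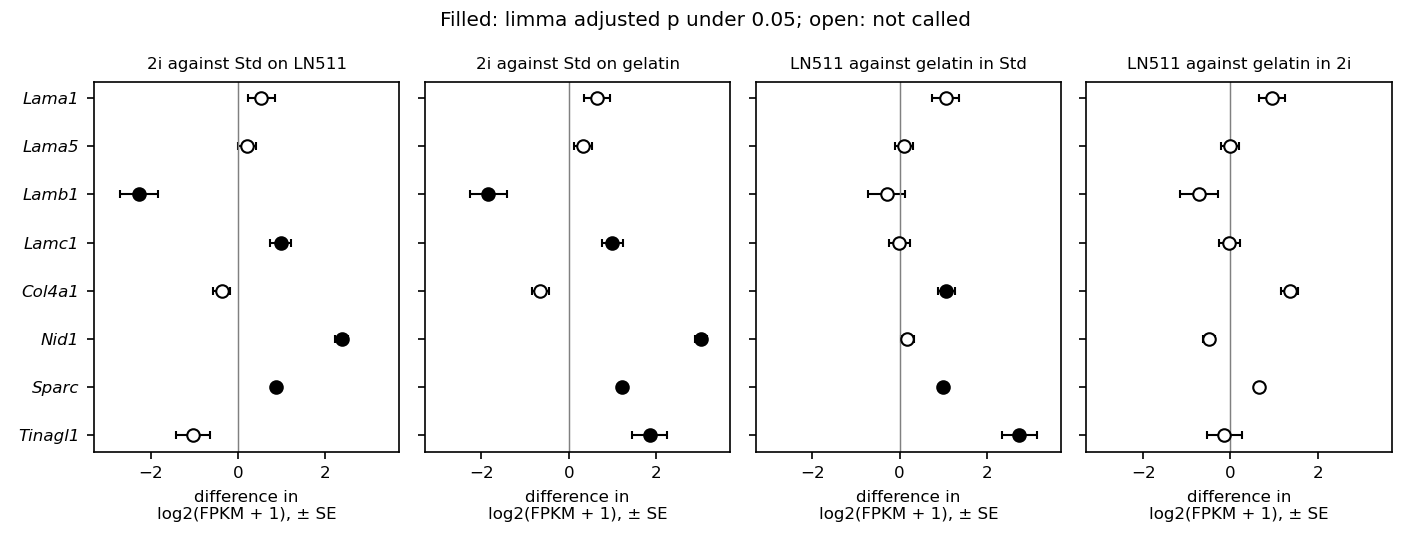
Differences in log2(FPKM + 1) with their SE (x axis) for the 8 tested genes in the 4 comparisons, where filled points have a limma adjusted p under 0.05. Nid1 lies farthest right in both medium comparisons (2.37 and 3.04), Lamb1 farthest left (-2.27 and -1.84), and the points of Lama5 and Lamc1 lie at 0 in both coating comparisons, within their SE.

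The other matrix genes were read from lists written from textbook knowledge. Of 16 other basement membrane components, 8 were tested. In 2i, 2 rose and 2 fell on LN511, and 3 rose and 2 fell on gelatin. Of all genes tested, 8.58% rose and 9.95% fell on LN511, and 8.2% rose and 7.2% fell on gelatin. Fn1, fibronectin, was the highest of them, at 156 and 124 FPKM in LN511 2i against 61.4 and 50.2 in LN511 Std, and 233 and 235 in gelatin 2i against 90.8 and 95.6 in gelatin Std. Fn1 rose on both coatings (log2 difference 1.31 on LN511 and 1.32 on gelatin, SE 0.14, limma adjusted p = 0.0016 and 0.00203). Nid2, given above, rose on both, and Agrn, agrin, rose on gelatin (log2 difference 1.19, limma adjusted p = 0.00501).

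Col18a1, the collagen from which endostatin is cut, fell in 2i. It was at 55.0 and 53.0 FPKM in LN511 2i against 120 and 127 in LN511 Std, and at 41.0 and 43.2 in gelatin 2i against 108 and 107 in gelatin Std (log2 difference -1.18 on LN511 and -1.34 on gelatin, SE 0.08, limma adjusted p = 0.000383 and 0.000254). Frem2, of the Fraser complex at the epidermal basement membrane, fell on both coatings, at levels of at most 2.37 FPKM. None of the 8 components was called between coatings in either medium, with medians of -0.08 in Std and 0.03 in 2i. Of all genes tested, 2.1% were called between coatings in Std and 0.0195% in 2i. Fn1 lay lower on LN511 than on gelatin in each medium without overlap, and did not pass.

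Enzymes that modify and export collagen were called in both directions. Of 18 listed, 14 were tested, and in 2i 1 rose and 4 fell on LN511 and 4 rose and 2 fell on gelatin. The shares of all genes tested were 8.58% higher and 9.95% lower on LN511, and 8.2% and 7.2% on gelatin. Plod2, a lysyl hydroxylase, fell on LN511 (log2 difference -0.91, limma adjusted p = 0.0185) and on gelatin (log2 difference -1.40, limma adjusted p = 0.00477). Colgalt1, which adds galactose to hydroxylysine, rose on LN511 (log2 difference 0.63, limma adjusted p = 0.0195) and on gelatin (log2 difference 1.16, limma adjusted p = 0.0027). Pxdn, peroxidasin, which forms the sulfilimine cross-links of collagen IV, was at 1.30 and 0.93 FPKM in LN511 2i against 7.41 and 7.14 in LN511 Std, and at 1.03 and 0.97 in gelatin 2i against 5.40 and 4.90 in gelatin Std. Pxdn fell on LN511 (log2 difference -1.97, limma adjusted p = 0.00305) and on gelatin (log2 difference -1.62, limma adjusted p = 0.00748).

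P4ha2 and Bmp1 also fell on LN511, and P4hb, P3h1 and Plod1 also rose on gelatin. P4hb, protein disulfide isomerase, was the highest of the list at 171 to 211 FPKM. Bmp1, the procollagen C-proteinase, was the only one called between coatings, in Std medium, where 2.1% of all genes were called. It was at 2.90 and 2.25 FPKM in LN511 Std against 0.35 and 0.16 in gelatin Std, and rose (log2 difference 1.51, limma adjusted p = 0.042).

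Of 12 receptor genes, 7 were tested. Itga3, another alpha chain of laminin-binding integrins, was set aside for a zero in gelatin 2i replicate 1 and reached 103 FPKM in LN511 Std replicate 1. Bcam, a laminin receptor that binds the alpha chain encoded by Lama5, was the highest of those tested, at 161 and 171 FPKM in LN511 2i, 130 and 128 in LN511 Std, 141 and 141 in gelatin 2i, with 51.7 and 42.0 in gelatin Std. Bcam rose on LN511 in Std medium (log2 difference 1.45, SE 0.11, limma adjusted p = 0.0044) and in 2i on gelatin (log2 difference 1.58, SE 0.11, limma adjusted p = 0.000398). Gelatin Std was the low group. The coating call of Bcam was lost without LN511 Std replicate 1 (limma adjusted p = 0.0703) and with only the 4 Std libraries fitted (0.0749). Its interaction of coating and medium had a limma adjusted p of 0.0519, and passed with doubtful zeros kept (0.0453) or quantile normalization (0.0426). Itga1, an integrin chain of collagen receptors, rose on LN511 in Std (log2 difference 1.36, limma adjusted p = 0.0465) at levels of 2.06 and 1.93 FPKM against 0.106 and 0.232 in gelatin Std. In 2i on LN511 4 receptors fell, Itga1, Itga6, Sdc1 and Sdc4, and none rose, where 9.95% of all genes fell and 8.58% rose. Itga6, an alpha chain of laminin-binding integrins, was at 27.7 and 27.1 FPKM in LN511 2i against 38.2 and 38.0 in LN511 Std (log2 difference -0.46, SE 0.11, limma adjusted p = 0.0289).

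Among 8 matrix protease and inhibitor genes, 5 were tested. Htra1, a secreted serine protease, was at 49.8 and 47.5 FPKM in LN511 2i against 12.3 and 8.79 in LN511 Std, and at 23.6 and 22.8 in gelatin 2i against 2.81 and 4.31 in gelatin Std. Htra1 rose in 2i on LN511 (log2 difference 2.12, SE 0.22, limma adjusted p = 0.00164) and on gelatin (log2 difference 2.43, SE 0.22, limma adjusted p = 0.00128), and rose on LN511 in Std (log2 difference 1.34, SE 0.22, limma adjusted p = 0.0372). Adamts1 passed as lower in 2i on both coatings at levels of at most 2.77 FPKM, against values listed at 0 in 3 of the 4 libraries of 2i medium. Agrn, Frem2, P3h1, Plod1, P4ha2, Itga3 and Itga6 were named after their values were seen, to complete these counts. The coating calls of Bmp1, Itga1 and Htra1 and the gelatin call of Adamts1 were lost whichever of the 8 libraries was left out. In 2i on LN511 the calls of Plod2, Colgalt1, P4ha2, Bmp1, Itga1, Itga6, Sdc1, Sdc4 and Frem2, and on gelatin those of P4hb, P3h1, Plod1 and Frem2, were lost without at least 1 of the 4 libraries compared.

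**Figure D4:**
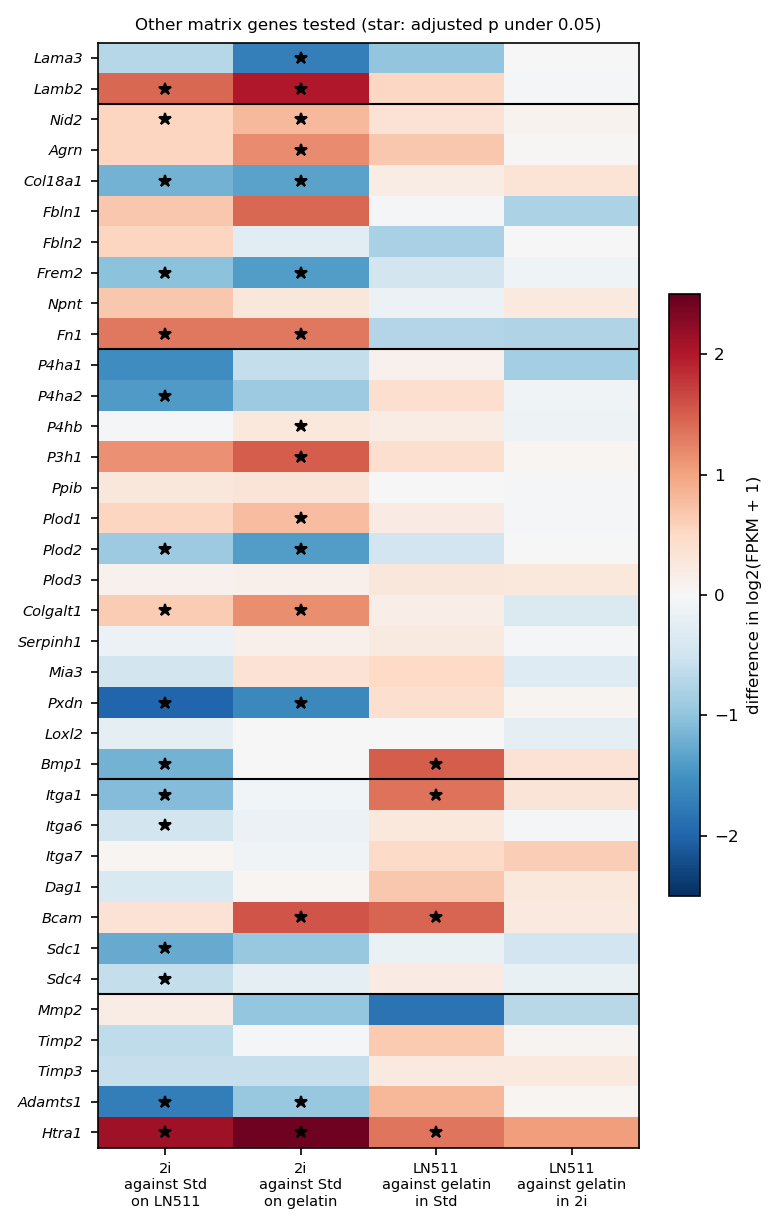
Differences in log2(FPKM + 1) (colour) of other laminin chains, components, collagen enzymes, receptors and proteases (rows, groups parted by lines) in the 4 comparisons (columns). Stars mark a limma adjusted p under 0.05. The medium columns hold most stars, in both colours, the column of LN511 against gelatin in Std holds few and that in 2i holds none.

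Genes with the pattern most like a member were sought among those averaging at least 5 FPKM, by the root mean square difference of log2(FPKM + 1) over the 8 libraries after centring each gene. For Lama1, whose own spread around its mean was 0.61 on that scale, they were Pcif1 (0.21), Tpm4 (0.24) and Mpzl1 (0.26). For Lama5, with a spread of 0.21, they were Mfsd13a (0.10), Smc6 (0.12) and Sh3glb1 (0.12). For Col4a1, with a spread of 0.67, they were Bscl2 (0.29), Basp1 (0.30) and Npepl1 (0.31). The measure describes these 8 libraries, in which replicates of a group share its condition.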

How the data were processed

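RNA-seq of 8 libraries, 2 for each of 4 groups of coating and medium set by the labels, was used. The authors deposited FPKM values per gene symbol and per transcript. Per the submitters' processing notes, the tools were Cufflinks 2.1.1 and TopHat2 2.1.1 and the build mm10. Their settings, strandedness and scaling were not given in the sources used here. Gene values are sums over RefSeq transcripts (31786 of 32688 rows matched a GRCm38.p6 symbol), because the deposited gene table lists at 0 47.3% of values that the sums put at 1 FPKM or more. The 21844 assembled transcripts name no gene and were left out, so their fragments are missing from the sums. Of 11244 genes with at least 1 FPKM in 2 libraries, 836 where 1 replicate was at 0 beside 5 FPKM or more in its partner, and 130 where a whole group was at 0 while another averaged 5 FPKM or more, were set aside as doubtful zeros, which left 10278.

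R 4.3.3 with limma 3.58.1 (eBayes with trend) was fitted to log2(FPKM + 1) with 1 mean per group, 4 residual degrees of freedom and Benjamini-Hochberg adjustment per comparison, and was tested on simulated data. Members, lists and tests were chosen with earlier results of these data known. One item of the lists is not reported here. Other genes were named from the lists: the other laminin and collagen IV chains, the highest member of each other list and up to 3 called members per comparison by adjusted p. The alternatives were another pseudocount, no filter, doubtful zeros kept, quantile normalization, the gene table, a replicate block, only the 2 groups compared, and each library left out.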

Additional observations from a re-analysis of the deposited data

How the results depend on the processing

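For the 8 tested members, 496 of 557 values under the alternatives stayed on their side of the threshold, 61 lost the call, and 0 called values changed sign. Most of the 557 belong to comparisons in which the member was not called to begin with. Only the main calls could be lost, 5 in 2i on gelatin, 4 in 2i on LN511 and 3 on LN511 in Std. The 61 are thus a larger part of the values open to loss than of the 557. Lama1, never called, changed sign in 2i against Std in the deposited gene table, where it is listed at 0 in 6 libraries. The number of genes called in 2i on LN511 (1905) was 326 in the deposited gene table and 962 with only the 2 groups fitted, and 861 to 1625 with 1 library left out (members 2 to 4). On gelatin (1583) it was 295, 998 and 648 to 1516 (members 2 to 4). For LN511 against gelatin in Std (216) it was 135, 6 and 9 to 199 (members 0 to 2), lowest without LN511 Std replicate 1, and in 2i (2) it was 54, 0 and 0 to 12, with 42 when doubtful zeros were kept, 15 without a filter and 0 at a pseudocount of 0.1. For the interaction (19) it was 65 in the gene table, 31 with no filter, 53 with doubtful zeros kept and 0 to 11 with 1 library left out. The members called on gelatin were 3 with no filter, and those called between coatings in Std were 1 with a pseudocount of 0.1 and 0 with only the 2 groups fitted, against 5 and 3. In the deposited values per gene symbol 1 member could be tested and 0 were called in any comparison. Pxdn turned there to 1.00 on gelatin and 1.07 on LN511, as it is listed at 0 in all Std libraries. The cause of the other changes was not tested. Lama5 has no row there, so no chain share could be computed from it.

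Over all genes tested, same-numbered libraries did not deviate together (correlations of -0.02 to 0.019), so no pairing by number was seen. A deviation shared by few genes would not show in this measure. With the replicate number as a block, 3 members were called on gelatin, 1 between coatings in Std, and 80 genes between coatings in Std, 0 in 2i and 1 for the interaction. The Lama1 share of alpha chains was 12.8% to 16.2% in LN511 2i, 9.87% to 12.2% in LN511 Std, 4.97% to 9.35% in gelatin 2i and 3.57% to 5.49% in gelatin Std with 1 library left out. With 2 libraries a group, leaving 1 out gives back the share of the other, as listed above, and is no check. Taking only the highest transcript of each gene tests nothing for these shares, as each alpha chain gene has 1 transcript row. Low levels such as those of Tinagl1 are limited by depth.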
